A study of Homo sapiens with 6 samples.

Results

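CDK6 is one of the kinases that drive cells out of G1, and its mRNA in extracellular vesicles (EVs) is described here with that of its partners, inhibitors and targets. The 9 others on the list are CDK4, CCND1, CCND2, CCND3, CDKN2C, CDKN1B, RB1, E2F1 and CDK2. The members were chosen by the log2 difference of CDK6 between CD47- and WT EVs, one of the highest in these arrays, so that difference is given as a description with no test. The other members were added by function with the same results in view, and their differences are descriptions as well. Probe sets annotated with exactly 1 gene symbol were found for 9 of the 10 members, 1 probe set each, out of 18417 genes in all. CDKN2C was in no probe set of the annotation used here and is only named.

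The EVs came from JinB8 cells, a somatic mutant of the Jurkat line that lacks CD47, and from the WT parent line Jurkat, grown from a human T cell leukemia. Each cell line gave 3 EV preparations, labeled by the submitters as cell culture replicates, which does not settle whether every preparation came from a culture of its own. Both lines were kept without serum for 24 to 48 h, in a medium with insulin, transferrin, selenite and hydrocortisone, and 300 ng of total RNA per preparation was labeled for a human whole-transcript array of Affymetrix. EVs were precipitated with Exo-quick or Exo-spin, and the labels do not tie a kit to a preparation. JinB8 is a single mutant line, so loss of CD47 cannot be told apart from other differences between the lines.

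Cells pass from G1 into S phase when D-type cyclins (CCND1, CCND2, CCND3) bind CDK4 or CDK6 and the resulting kinases phosphorylate the retinoblastoma protein, the product of RB1. Phosphorylated retinoblastoma protein releases E2F factors such as E2F1, which switch on cyclin E and genes of DNA synthesis, and cyclin E with CDK2 completes the switch. INK4 proteins such as the CDKN2C product block CDK4 and CDK6, whereas the CDKN1B product, also called KIP1, restrains CDK2. In the T lineage CDK6 and cyclin D3 support the expansion of thymocytes and of T cell leukemia. The mRNA found in EVs need not mirror that of the cells, and cells were not measured in these arrays.

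A value is a log2 level relative to the rest of the RNA on an array, so the amount of RNA in the EVs is not shown. Probes bind with different strength, and levels of different genes are therefore not compared with each other. As a rough gauge of background, the means of 338 olfactory receptor genes, usually silent in T cells, had a median of 5.49, and 95% of them lay below 6.79. The array medians lay between 5.08 and 5.14. Of 11 measured T cell markers, 8 had a mean above the olfactory receptor median, with CD7 at 7.75 and LCK at 6.93, against 2 of 5 B cell markers, 3 of 8 myeloid markers and 2 of 4 erythroid and platelet markers. CD47 itself averaged 4.73 ± 0.19 in CD47- EVs and 4.71 ± 0.02 in WT EVs (SD, n = 3 arrays each), so this dim probe set does not check the labels.

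The log2 difference of CDK6, by which the members were chosen, was the widest of the measured members. The log2 value of CDK6 was 6.08, 5.79 and 5.98 in CD47- EVs, against 4.62, 4.67 and 4.53 in WT EVs. All CD47- arrays lay above all WT arrays, and the lowest CD47- array exceeded the highest WT array by far more than arrays of one group differed. The means were 5.95 ± 0.15 in CD47- EVs and 4.61 ± 0.07 in WT EVs (SD, n = 3 each), a log2 difference of 1.34 (standard error 0.09). The CD47- mean of CDK6 lay above the mean of 68.0% of the olfactory receptor genes and the WT mean above that of 21.6%. Neither mean reached 6.79, the level below which 95% of these genes lay, so the gauge places neither signal clearly above background. The WT mean also lay below the olfactory receptor median, and no fold change is given.

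Its sister kinase CDK4, which binds the same D-type cyclins, differed much less. CDK4 had log2 values of 6.20, 6.27 and 6.47 in CD47- EVs, against 6.15, 6.09 and 5.92 in WT EVs. The groups did not overlap, but the lowest CD47- array lay close to the highest WT array. The log2 difference was 0.26 (standard error 0.09), or 1.19-fold, and it was 0.18 without CD47- replicate 3. CDK2, the partner of cyclin E, had log2 values of 5.71, 5.74 and 5.63 in CD47- EVs, against 5.43, 5.61 and 5.52 in WT EVs. These groups also did not overlap, by a margin smaller than the spread within either group, and the log2 difference was 0.17 (standard error 0.08).

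**Figure D1:**
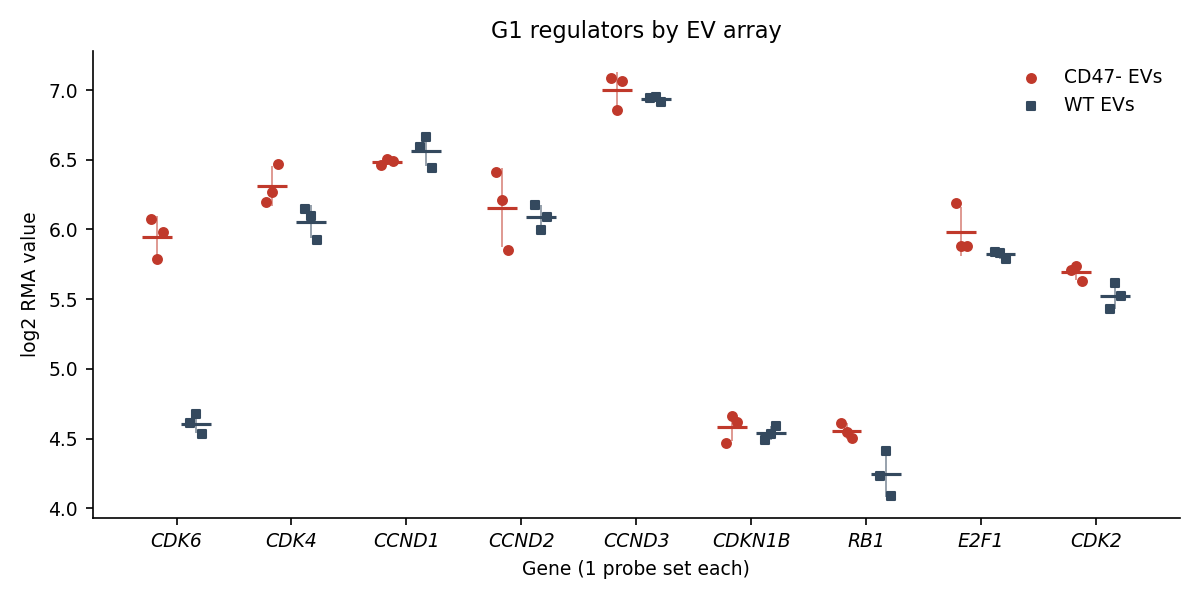
log2 RMA value (vertical axis) of each measured G1 regulator (horizontal axis) in the 3 CD47- EV arrays (red circles) and the 3 WT EV arrays (blue squares), with the mean (horizontal bar) and SD (vertical line) of each group. CDK6 is the gene with a wide gap, 5.79 to 6.08 in CD47- EVs against 4.53 to 4.67 in WT EVs.

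None of the D-type cyclins separated the groups. CCND3, the D-type cyclin most tied to thymocyte growth, had log2 values of 7.09, 6.86 and 7.06 in CD47- EVs, against 6.94, 6.95 and 6.91 in WT EVs. Its WT arrays lay inside the range of its CD47- arrays, and the log2 difference was 0.07 (standard error 0.08). CCND3 was the only measured member whose mean exceeded 6.79, the level below which 95% of the olfactory receptor genes lay. The gauge places none of the others, CDK4, CDK2 and E2F1 included, clearly above background.
CCND2 had log2 values of 6.41, 6.21 and 5.85 in CD47- EVs, against 6.18, 5.996 and 6.09 in WT EVs. Its CD47- arrays spread on both sides of its WT arrays, and it had the largest spread within groups of the members (pooled SD 0.21). Its log2 difference was 0.07 (standard error 0.12) and became -0.06 without CD47- replicate 1. CCND1, a cyclin used mainly outside the blood lineages, had log2 values of 6.46, 6.51 and 6.49 in CD47- EVs, against 6.59, 6.66 and 6.44 in WT EVs. Its groups overlapped, and it was the only member with a difference below 0 (-0.08, standard error 0.08).

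Of the inhibitors on the list, CDKN1B was measured. It had log2 values of 4.47, 4.66 and 4.62 in CD47- EVs, against 4.49, 4.53 and 4.59 in WT EVs. The groups overlapped and the log2 difference was 0.05 (standard error 0.08). Its CD47- and WT means lay above those of 21.6% and 20.7% of the olfactory receptor genes, and whether so dim a probe set can report a change was not tested.

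RB1, the target of these kinases, had log2 values of 4.62, 4.54 and 4.50 in CD47- EVs, against 4.24, 4.41 and 4.09 in WT EVs. The groups did not overlap, and the log2 difference was 0.31 (standard error 0.09). The CD47- mean of RB1 lay above those of 21.0% of the olfactory receptor genes and its WT mean above those of 14.5%, so neither is placed above background. E2F1, the factor that the retinoblastoma protein holds back, had log2 values of 6.19, 5.88 and 5.88 in CD47- EVs, against 5.84, 5.83 and 5.79 in WT EVs. The groups did not overlap, yet CD47- replicate 1 stood above its fellows. The log2 difference of 0.16 (standard error 0.09) became 0.06 without that array.

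Set side by side, 5 of the 9 measured members had all CD47- arrays above all WT arrays (CDK6, CDK4, CDK2, RB1 and E2F1), 0 had them all below and 4 overlapped. Over all genes the groups were separated in that direction for 7.3% and in the other for 5.53%. Apart from CDK6, the differences of the members ran from -0.08 to 0.31 with a median of 0.12, against a median of 0.0029 over all 18417 genes. In the limma fit over all genes, 0.668% of genes were called higher in CD47- EVs and 0.0163% lower at an adjusted p under 0.05. Of the 8 measured members other than CDK6, 0 were called. With the p left unadjusted and the same threshold, limma had 3 of the 8 higher and 0 lower (5.16% and 2.87% of all genes), and a test of each gene on its own variance had 1 higher and 0 lower (4.32% and 2.76% of all genes). The difference was above 0 for 8 of the 9 and for 51.3% of all genes. The members were chosen with this contrast known, so nothing is read from these counts.

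A shift shared by all genes of an array drops out of the log2 value of CDK6 less that of another member. Changes that depend on the level, as in normalization by quantiles, do not drop out. CDK6 less CDK4 was -0.12, -0.48 and -0.49 in CD47- EVs, against -1.53, -1.42 and -1.39 in WT EVs. CDK6 less CCND3 was -1.01, -1.07 and -1.08 in CD47- EVs, against -2.33, -2.28 and -2.38 in WT EVs. Since CDK6 was chosen for its difference and the other members differed little, a gap between the groups had to remain in these values, and nothing is read from it. Its size ran from 1.03 against RB1 to 1.42 against CCND1. The sign of a single value reflects the probes and is not a ratio of mRNA levels.

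Other regulators of G1 showed nothing as large, which was near certain beforehand. CDK6 was chosen for its difference, and only 4 genes called higher had a larger one, so nothing is read from this. All 26 genes of this list were measured, and limma called 0 higher and 0 lower over all genes, where it called 0.684% in either direction. With unadjusted p, limma had 4 higher and 0 lower (5.16% and 2.87% of all genes), and the test on each gene's own variance had 1 higher and 0 lower (4.32% and 2.76%). The median log2 difference was 0.03, with a range from -0.20 to 0.27. Groups were separated with CD47- higher for 1 of the 26, against 7.3% of all genes.
That gene was SKP2, the subunit of the ubiquitin ligase that marks the CDKN1B product for destruction. SKP2 had log2 values of 5.88, 5.82 and 6.10 in CD47- EVs, against 5.70, 5.62 and 5.68 in WT EVs, a log2 difference of 0.27 (standard error 0.09, adjusted p = 0.324 from limma). The cyclin A gene CCNA2 gave 0.24 (adjusted p = 0.464 from limma), and GSK3B, a kinase that promotes the loss of cyclin D1, also gave 0.24 (adjusted p = 0.521 from limma). The INK4 genes CDKN2A, CDKN2B and CDKN2D had differences of -0.07, 0.06 and 0.07, and the KIP genes CDKN1A and CDKN1C of 0.03 and 0.11. The cyclin E genes CCNE1 and CCNE2 had differences of -0.05 and 0.08. RBL1, a relative of RB1, had -0.20, the lowest of the list.

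The other kinases of the CDK family had smaller differences than CDK6. Since CDK6 was chosen for its difference, nothing is read from this. Of 16 measured, limma called 0 higher and 0 lower, with 0 higher and 1 lower by unadjusted p (5.16% and 2.87% of all genes), and 0 of either by each gene's own variance (4.32% and 2.76%). Their differences ran from -0.23 to 0.16, with a median of 0.03. The extremes were CDK12, a kinase of the RNA polymerase II tail, with -0.23 (adjusted p = 0.527 from limma), and CDK11B with 0.16 (adjusted p = 0.719 from limma), whose probes can also detect the near copy CDK11A. CDK15 gave -0.13 (adjusted p = 0.786 from limma). The mitotic kinase CDK1 had log2 values from 3.26 to 3.46 in CD47- EVs and from 3.17 to 3.58 in WT EVs, so its groups overlapped at a dim level.

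**Figure D2:**
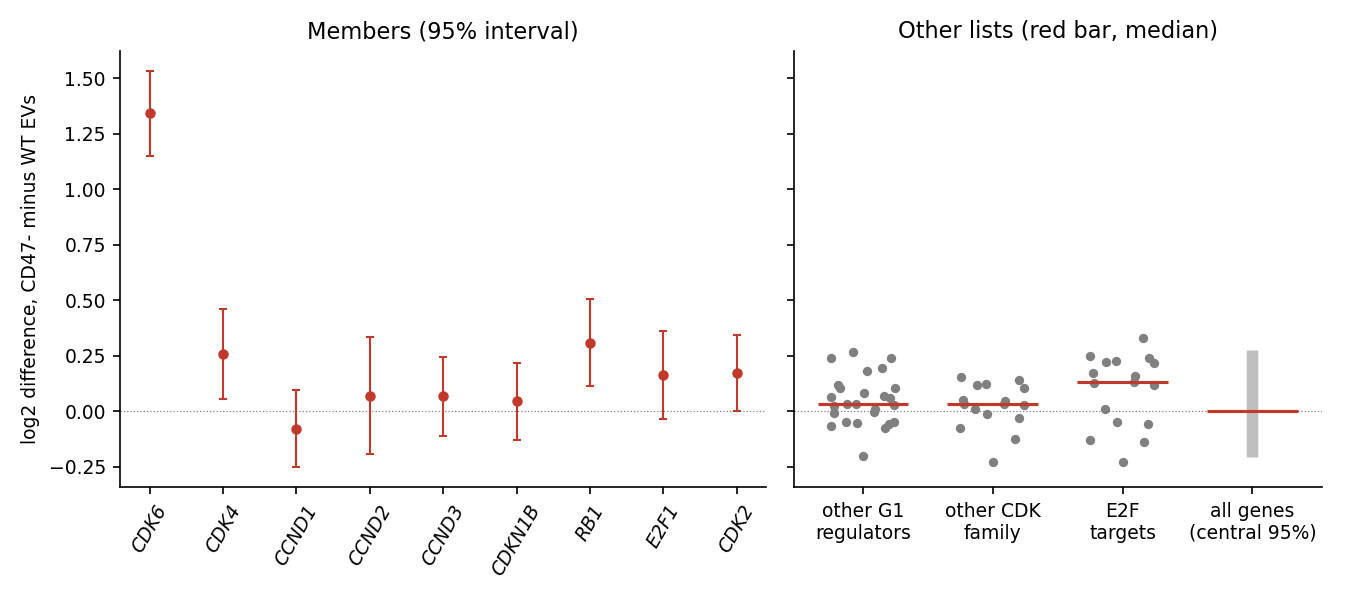
log2 difference between CD47- and WT EVs (vertical axis) of the members with 95% intervals from limma (left) and of the genes of 3 other lists with their medians (right), beside the range that holds the central 95% of all 18417 genes, -0.20 to 0.28. CDK6 lies at 1.34, and the highest gene of the other lists, RRM1, at 0.33.

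Genes that E2F factors switch on include cyclin E, cyclin A, the MCM helicase subunits and the enzymes of nucleotide supply. Of 17 measured, limma called 0 higher and 0 lower. By unadjusted p, limma had 5 higher and 1 lower (5.16% and 2.87% of all genes), and the test on each gene's own variance had 2 higher and 1 lower (4.32% and 2.76%). The lists share genes. CCNE1, CCNA2 and CDC25A are also among the other G1 regulators, so CCNA2 counts as higher by unadjusted p in both. CDK7 is in both the G1 list and the CDK family list. The median log2 difference was 0.13, against 0.0029 over all genes, and groups were separated with CD47- higher for 4 (MCM5, MCM7, RRM1 and RRM2) and lower for 1, against 7.3% and 5.53% of all genes.
RRM1, the large subunit of ribonucleotide reductase, had log2 values of 4.80, 4.80 and 4.73 in CD47- EVs, against 4.31, 4.49 and 4.54 in WT EVs, a log2 difference of 0.33 (adjusted p = 0.13 from limma). MCM7 gave 0.25 (adjusted p = 0.387 from limma). TK1, the thymidine kinase of S phase, went the other way. Its log2 values were 5.98, 6.03 and 5.91 in CD47- EVs, against 6.27, 6.24 and 6.08 in WT EVs. The difference was -0.23 (adjusted p = 0.385 from limma). Among the T cell markers, the 3 CD3 genes CD3D, CD3E and CD3G also had all CD47- arrays above all WT arrays (0.28, 0.37 and 0.34). Over all genes 7.3% were separated in that direction. The groups of the other 8 markers overlapped, with differences from -0.04 for CD247, another chain of the T cell receptor complex, to 0.14 for ZAP70, and the median of the 11 was 0.07. Limma called 0 of the 11 T cell markers. By unadjusted p, the 3 CD3 genes were higher and 0 markers lower (5.16% and 2.87% of all genes). By each gene's own variance, 2 were higher and 0 lower (4.32% and 2.76%). Of the B cell, myeloid, erythroid and platelet markers, 0 passed by either p. The part of the CD3 genes in the small positive shifts of the G1 genes was not tested.

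The E2F1 gene is itself known to be under E2F control, and the stretch of its promoter window that holds E2F letters is printed here. RefSeq promoter windows of 300 bases were at hand for 7 members, 12 windows in all. They were searched on both strands for the E2F letters TTTGGCGC, TTTCGCGC, TTTCCCGC and TTTGCCGC. Of all 35116 windows, 3.31% held one, and of the 12 member windows 1, that of E2F1, with 2 matches that do not overlap. The stretch lies at chr20:33686378-33686438 (GRCh38.p14, minus strand), with the matches in capitals, the first of them read on the other strand as TTTGCCGC.
E2F1: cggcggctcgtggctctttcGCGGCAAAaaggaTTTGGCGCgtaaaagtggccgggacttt
A match describes letters only, and the arrays do not measure promoters. The 2 windows of CDK6 held no match, from which nothing is drawn.

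CDK6 lies on chromosome 7. Since it was chosen for its difference, nothing is read from the smaller ones of its nearest measured neighbours on each side. The 5 on one side were, from the nearest, RBM48, ERVW-1, GATAD1, ANKIB1 and LRRD1, and the 5 on the other SAMD9, SAMD9L, HEPACAM2, VPS50 and CALCR. Limma called 0 higher and 0 lower of these 10, with 0 higher and 1 lower by unadjusted p (5.16% and 2.87% of all genes), and likewise 0 and 1 by each gene's own variance (4.32% and 2.76%). The differences ran from -0.20 to 0.15 with a median of -0.01.
SAMD9, the next measured gene on one side and an antiviral factor, had log2 values of 3.67, 3.72 and 3.76 in CD47- EVs, against 3.91, 3.85 and 3.99 in WT EVs. Its CD47- arrays all lay below its WT arrays. HEPACAM2 went the other way, with 3.89, 3.89 and 4.11 in CD47- EVs, against 3.87, 3.86 and 3.69 in WT EVs. Of the 10 neighbours, 1 was separated with CD47- higher and 1 with CD47- lower, against 7.3% and 5.53% of all genes. RBM48, the nearest on the other side, had 2.83, 2.92 and 2.94 in CD47- EVs, against 2.86, 2.82 and 2.91 in WT EVs, and its groups overlapped. Only 2 of the 10, GATAD1 and ERVW-1, had a mean above the olfactory receptor median.

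**Figure D3:**
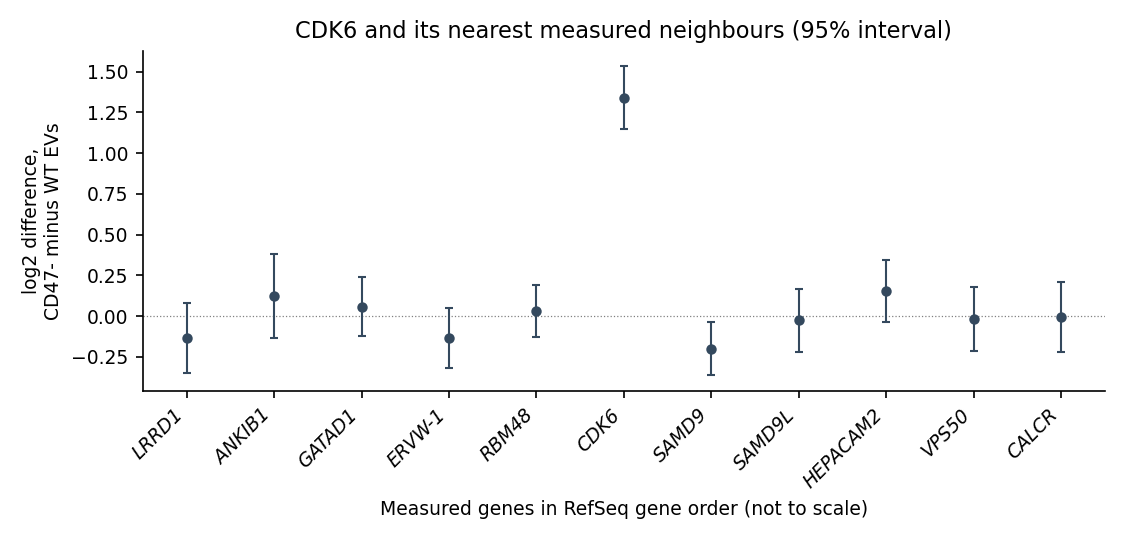
log2 difference between CD47- and WT EVs with 95% intervals from limma (vertical axis) for CDK6 and the 5 nearest measured genes on each side in RefSeq order (horizontal axis, not to scale). CDK6 at 1.34 is flanked by genes between -0.20 and 0.15.

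The genes whose pattern over the 6 arrays was most like that of CDK6 are given as a description. Likeness was the Euclidean distance between values centered on each gene's mean, so a gene is near when both the size of its difference and its array-to-array pattern match. The other members, with differences of at most 0.31, could not be near by this measure, and nothing is read from their places. The 5 nearest were HSPA8, a heat shock chaperone (distance 0.36), CSNK2B, the regulatory subunit of casein kinase (0.44), CD1E, a CD1 gene found in thymocytes (0.46), TUBB, a beta tubulin (0.47), and ENO1, a glycolytic enzyme (0.47). Since they were picked for their likeness, their differences, from 1.04 to 1.19, are descriptions.
HSPA8 had log2 values of 8.87, 8.89 and 9.08 in CD47- EVs, against 7.88, 7.83 and 7.55 in WT EVs. Each of these 5 genes had a mean above that of at least 93.8% of the olfactory receptor genes, whereas for CDK6 this share was 44.1%. Of the 123 genes called higher in CD47- EVs, 60 had a mean over 6.79 and 17 a mean below the olfactory receptor median. Of all 18417 genes, 864 had a mean over 6.79 and 7222 a mean above the olfactory receptor median. The nearest member by this measure was RB1 (distance 1.29), at place 306 of all genes, followed by CDK4 (1.37) at place 516, and CCND1 was the farthest (1.76) at place 14218.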

How the data were processed

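The values deposited by the authors are on the log2 scale and come from RMA in Affymetrix Expression Console, per the submitters' processing notes, with versions and build not given in the sources used here. This method corrects background, normalizes by quantiles and summarizes probe sets, which can compress differences of dim genes. Conditions and replicate numbers came from the submitters' labels.

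Of 33297 probe sets, 19460 had 1 symbol in the platform annotation and gave 18417 genes, where the brightest probe set by its mean stood for the gene. CD47- and WT EVs were compared with limma 3.58.1 in R 4.3.3 (lmFit and eBayes, Benjamini-Hochberg over all genes, threshold 0.05). The p values measure the spread between these preparations, which may be technical, and 3 arrays per group limit the precision. On simulated arrays with 18417 genes for CD47- against WT EVs, the fit recovered 70% of genes raised by 0.5 on the log2 scale and 97.5% of those raised by 1. Changes smaller than 0.5, such as those of the members other than CDK6, were not simulated. Noise was drawn for each gene by itself, so effects shared by an array were left out.

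The members and lists were chosen with earlier results of these data known. Named were all members, in the lists of G1 regulators, CDK family and E2F targets the 3 genes with the smallest p (with the extremes, and the inhibitors, cyclins, CDK1 and separated genes added after their values were seen), 5 neighbours of CDK6 on each side and the 5 genes most like CDK6. Marker genes of T, B, myeloid, erythroid and platelet cells and of EVs were described by counts. Of 6 measured EV markers, 3 had a mean above the olfactory receptor median and 0 were called by limma. By unadjusted p, limma had 1 higher and 0 lower (5.16% and 2.87% of all genes). The 1 higher was SDCBP, with a log2 difference of 0.64. Its log2 values were 5.03, 5.42 and 5.09 in CD47- EVs, against 5.01, 4.55 and 4.07 in WT EVs. All CD47- arrays lay above all WT arrays, but only narrowly, and the WT arrays spread widely (SD 0.47). Its mean of 4.86 was below the olfactory receptor median. With unadjusted p on each gene's own variance, 0 EV markers were higher and 0 lower (4.32% and 2.76% of all genes). Alternatives were a replicate block, centering on olfactory receptor genes, a further quantile normalization, other variance models, array weights, a filter on dim genes, the lowest probe set of each gene, every probe set by itself and leaving out each array.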

Additional observations from a re-analysis of the deposited data

How the results depend on the processing

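The log2 difference of CDK6 was between 1.28 and 1.42 over the alternatives, and 0 of the other members, G1 regulators, CDK family genes, E2F targets and neighbours were called in any of them that test 1 probe set per gene. At most 1 T cell marker and at most 1 EV marker were called in any of these. With dim genes left out CDK6 had no value, since its mean lies below the limit. Of the other members, CCND2 changed sign without CD47- replicate 1 and ranged from -0.06 to 0.22 when 1 array was left out, as did E2F1 from 0.06 to 0.21, CCND1 from -0.14 to -0.03, CCND3 from 0.02 to 0.14 and CDKN1B from 0.0054 to 0.10. The count of all genes called higher, 123, moved to 241 with centering on olfactory receptor genes and to 1 with unshared variance, and lay between 53 and 96 when 1 array was left out (53 with WT replicate 3 left out, 58 with CD47- replicate 3 and 77 with CD47- replicate 2). The count called lower, 3, was 7 over every probe set by itself and 0 with unshared variance, and lay between 1 and 5 when 1 array was left out. Apart from unshared variance and fewer arrays, whose construction lowers power, the cause was not tested. Centering moved the median of all genes from 0.0029 to 0.06 and the CDK6 difference to 1.40. Same-numbered arrays did not visibly deviate together (correlations of 0.02, -0.02 and -0.04). This does not settle whether preparations of the same number were handled together. With the replicate block, the CDK6 difference was 1.34 and 106 genes were called higher. Levels below the olfactory receptor median limit what CDKN1B, RB1, most neighbours and CDK6 in WT EVs can show.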
